A study of Rattus norvegicus with 24 samples.

Results

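The genes described here are the ligands and receptors of the tumour necrosis factor (TNF) superfamily and the receptors for interleukins. Members were the genes whose symbol began with Tnfsf, Tnfrsf, or Il followed by a number and r, without Tnfrsf1a, Tnfrsf12a, Il1r1, Il1rn and Il6r, and each was read from its brightest probe set over the 24 arrays. They numbered 41 of the 14217 genes with a probe set of a single symbol, and 50 probe sets carried their names. No filter on low values was applied, so all 41 were tested. Il36rn met the spelling rule but encodes an interleukin 36 receptor antagonist and not a receptor.

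The animals were male Fisher 344 rats, and the RNA of each testis sample was hybridised to an Affymetrix Rat230_2 array, 4 in each of 6 groups. Dams had received 50 mg/kg dibutyl phthalate (DBP, a plasticizer that lowers fetal testosterone in rats) in corn oil, or corn oil alone, by daily gavage over gestational days 12 to 20. Fetal testes came from 4 DBP dams and 4 oil dams at gestational day 20 (GD20), the DBP dams 6 hours after their last dose. At postnatal day 35 (PND35) male pups received a second gavage and testes were taken 6 hours later: oil-DBP pups had oil in utero and then 500 mg/kg DBP, oil-oil pups had oil and then oil, DBP-DBP pups had DBP in utero and then 500 mg/kg DBP, and DBP-oil pups had DBP in utero and then oil. The testis without its tunica was used whole, and 1 oil array at GD20 (dam 2) was labelled as a pool. The labels give dam numbers for the fetal samples and pup numbers for the postnatal ones but no litters, so p-values measure the spread between these animals. In whole testis, fewer cells of a type and less RNA per cell cannot be told apart.

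Ligands of the TNF superfamily are mostly membrane-bound or shed trimers that cluster their receptors, and those receptors either carry a death domain, recruit TRAF adaptors, or act as decoys that bind ligand without a signal. Interleukin receptors pair a ligand-binding chain with a shared signalling chain. Most of them signal through JAK kinases and STAT factors, whereas the interleukin 1 receptor family signals through MyD88 and the interleukin 17 receptors through their own adaptor. In the testis, interleukin 1 and TNF are known as products of macrophages, Sertoli cells and germ cells that act on Sertoli and Leydig cells.

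RefSeq's table of promoter windows, from 250 bases before to 50 after the start of a gene on build GRCr8, held 27 of the 41 members. The 3 stretches that follow precede members that were higher after DBP in both postnatal comparisons, and the fourth precedes Il3ra, the member with the largest difference between ages. Each gives only the bases outside the annotated extent of its gene, on the gene's own strand. Il10rb lies at chr11:44132386-44132470 on the plus strand, Il4r at chr1:189545525-189545738 on the plus strand, Tnfrsf21 at chr9:25451324-25451573 on the minus strand, and Il3ra at chr12:21437337-21437500 on the minus strand. Capitals mark matches, on either strand, to a GC box (GGGCGG) or an octamer (ATGCAAAT).
Il10rb: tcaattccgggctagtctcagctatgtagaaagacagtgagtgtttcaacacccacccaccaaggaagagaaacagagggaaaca
Il4r: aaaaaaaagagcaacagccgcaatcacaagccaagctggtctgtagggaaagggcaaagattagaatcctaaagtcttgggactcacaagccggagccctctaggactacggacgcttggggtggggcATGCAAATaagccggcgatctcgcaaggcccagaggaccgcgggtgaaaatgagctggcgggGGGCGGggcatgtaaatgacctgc
Tnfrsf21: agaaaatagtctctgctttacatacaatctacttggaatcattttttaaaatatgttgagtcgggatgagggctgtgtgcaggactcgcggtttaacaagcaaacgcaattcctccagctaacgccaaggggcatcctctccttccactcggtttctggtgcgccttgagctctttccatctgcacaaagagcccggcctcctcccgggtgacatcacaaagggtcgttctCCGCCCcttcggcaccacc
Il3ra: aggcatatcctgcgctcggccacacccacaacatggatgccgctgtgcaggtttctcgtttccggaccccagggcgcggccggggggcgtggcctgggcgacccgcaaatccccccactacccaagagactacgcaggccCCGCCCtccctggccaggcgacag
Motifs were searched only in the 250 bases of each window that lie before the start. A GC box was found there in the windows of 14 of the 27 members, against 30.5% of all 33469 windows of the table. The octamer was found in the window of Il4r alone among the members, against 1.56% of all windows. An AP-1 site (TGANTCA) was found in the windows of 2 members, Tnfrsf1b and Tnfrsf8, against 6.34% of all windows. An NF-kB site was found in 3, Il1rap, Il27ra and Tnfrsf8, against 6.33%. Neither a STAT site (TTCNNNGAA, in 7.67% of all windows) nor a CRE (TGACGTCA, in 1.59%) was found in the searched part of a member's window. Matches were counted on both strands, no motif was merged with another where they overlapped, and GC box and octamer were added to the search after the windows had been seen.

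The tissue label was borne out by its markers. Insl3 and Cyp17a1 of Leydig cells and Inha of Sertoli cells were present on all arrays, and the spermatid genes Prm1 and Tnp1 were high at PND35 and low at GD20, apart from the GD20 DBP array of dam 21, where Prm1 stood at 1469. The authors had scaled all arrays to a 2% trimmed mean intensity between 500.1 and 500.2. Median intensities were 165 to 175 at GD20 and 101 to 114 at PND35, and the number of arrays limits the precision. Poly-A spike-in controls, split within each age at the widest gap in their mean log2 intensity, fell into a low and a high class. The oil-DBP and oil-oil arrays were all low, the DBP-DBP arrays were all high, the DBP-oil arrays were 2 low (pups 123 and 127) and 2 high (pups 132 and 134), and at GD20 2 DBP arrays (dams 19 and 21) were low while the other 2 and all oil arrays were high. Values below are deposited intensities, which compare arrays for 1 probe set and not 1 gene with another. A fold change is a difference of log2(intensity + 16) after each PND35 array was centred on its median, and it understates changes of dim probe sets. A call is a Benjamini-Hochberg adjusted p under 0.05 in limma over all 31042 probe sets.

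In pups exposed to oil in utero, 500 mg/kg DBP raised 7 of the 41 members within 6 hours and lowered 1. Those called higher were the decoy receptors Il1r2 and Il13ra2, the interleukin 4 receptor chain Il4r, the interleukin 17 receptor chains Il17ra and Il17re, the shared interleukin 10 receptor chain Il10rb and the death-domain receptor Tnfrsf21. Il1rl1, the interleukin 33 receptor, was called lower. The members called were 19.5% of the 41, and 8.92% of all probe sets were called. In one direction, 17.1% of members and 4.77% of all probe sets were called higher, while 4.15% of all probe sets were called lower. The median member differed by 0.07 and the median of all probe sets by -0.08 (log2). With intensities left as deposited the member calls were again 7 higher and 1 lower, while higher calls made up 69.2% of all calls in place of 53.5%.

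In pups exposed to DBP in utero, the same dose raised 6 of the 41 members and lowered none. Il1r2, Il4r, Il17ra, Il10rb and Tnfrsf21 were called higher here too, and the sixth was Tnfrsf11b, the decoy receptor osteoprotegerin. The members called were 14.6% of the 41, and 5.23% of all probe sets were called. Of all probe sets, 3.64% were called higher and 1.58% lower. The median member differed by 0.07 and the median of all probe sets by -0.06 (log2). These comparisons share no array, though they share one estimate of the spread. Of the 41 members, 5 were called higher in both, 9 were called in at least 1, and 29 had the same sign in both. The same counts over all probe sets are not given here, so these do not set the members apart from other genes.

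**Figure D1:**
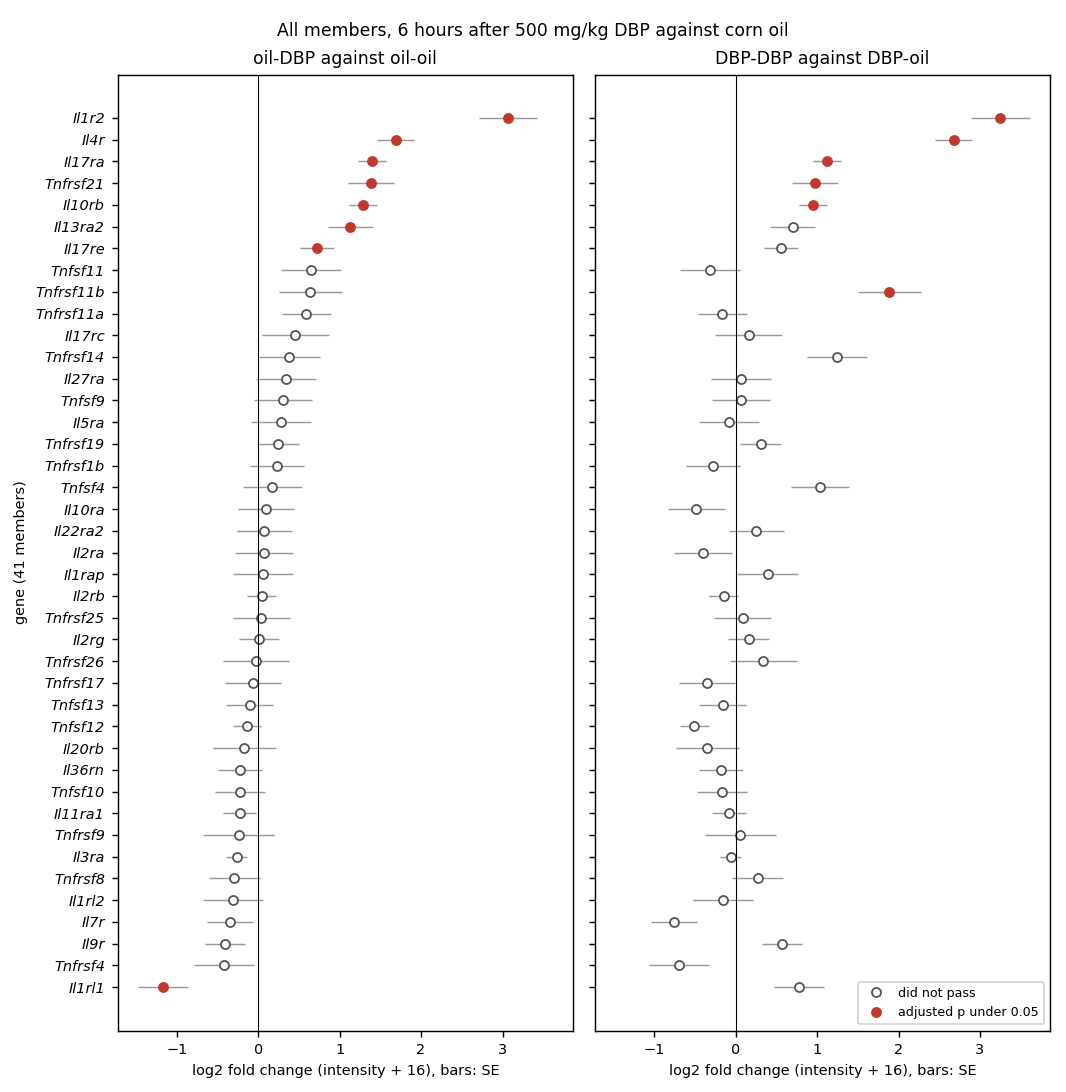
Log2 fold change of each of the 41 members (points) with its SE (bars), for oil-DBP against oil-oil on the left and DBP-DBP against DBP-oil on the right; filled points had an adjusted p under 0.05. The 5 members filled on both sides are Il1r2, Il4r, Il17ra, Tnfrsf21 and Il10rb, and most other members lie near 0.

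Il1r2, a decoy receptor that binds interleukin 1 without signalling, was the member with the largest fold change in both comparisons. Its intensity was 233, 406, 187 and 443 on the oil-DBP arrays, against 23.3, 7.49, 46.6 and 12.8 on the oil-oil arrays. It was 143, 159.5, 377 and 278 on the DBP-DBP arrays, against 24.5, 7.60, 3.61 and 3.81 on the DBP-oil arrays. The groups did not overlap in either pair, and the highest array of a pup given oil at PND35 (46.6) was far below the lowest of a pup given DBP (143). The fold change was 3.07 ± 0.36 (SE, limma adjusted p = 5.25e-06) for oil-DBP against oil-oil and 3.25 ± 0.36 (SE, limma adjusted p = 2.70e-06) for DBP-DBP against DBP-oil.

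Tnfrsf11b encodes osteoprotegerin, a soluble decoy for the ligand Tnfsf11. It read 34.5, 33.6, 107 and 77.7 on the DBP-DBP arrays, against 3.45, 2.86, 5.29 and 2.63 on the DBP-oil arrays. It read 11.1, 80.4, 35.1 and 59.8 on the oil-DBP arrays, against 47.4, 14.2, 22.1 and 3.60 on the oil-oil arrays. The 4 DBP-oil arrays were all near the bottom of the scale and below every DBP-DBP array, while oil-DBP and oil-oil overlapped. The fold change was 1.89 ± 0.39 (SE, limma adjusted p = 0.00379) for DBP-DBP against DBP-oil, and 0.64 ± 0.39 (limma adjusted p = 0.333) for oil-DBP against oil-oil. The difference between these fold changes was 1.25 ± 0.55, with an adjusted p of 0.954 in limma, so a difference was not shown.

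Il13ra2 is a decoy that binds interleukin 13. Its values were 71.6, 205, 154 and 222 on the oil-DBP arrays, against 61.4, 61.5, 42.6 and 65.4 on the oil-oil arrays. They were 104, 95.0, 201 and 150.1 on the DBP-DBP arrays, against 54.1, 80.5, 73.8 and 91.5 on the DBP-oil arrays. Neither pair overlapped, with the oil-DBP array of pup 105 closest to its oil-oil counterparts. The fold change was 1.13 ± 0.28 (SE, limma adjusted p = 0.0128) for oil-DBP against oil-oil, and 0.70 ± 0.28 (limma adjusted p = 0.198) for DBP-DBP against DBP-oil. The adjusted p for oil-DBP against oil-oil was 0.0561 without the array of pup 111 and 0.0619 without that of pup 121. Il22ra2, a soluble decoy for interleukin 22, averaged at most 40.9 in any group and was called in neither comparison.

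Il4r is the chain that binds interleukin 4 and, with another subunit, interleukin 13. Its intensity was 164, 236, 208 and 218 on the oil-DBP arrays, against 47.2, 45.2, 68.7 and 40.4 on the oil-oil arrays. It was 213, 186, 412 and 273 on the DBP-DBP arrays, against 27.2, 33.5, 25.0 and 20.8 on the DBP-oil arrays. The groups were far apart in both pairs, and the lowest array given DBP at PND35 (164) stood above the highest given oil (68.7). On the log2 scale Il4r differed by 1.69 ± 0.23 (SE, limma adjusted p = 3.26e-05) for oil-DBP against oil-oil and 2.68 ± 0.23 (SE, limma adjusted p = 6.33e-08) for DBP-DBP against DBP-oil. Their difference, 0.99 ± 0.32, had an unadjusted p of 0.00588 and an adjusted p of 0.954 in limma. Its partner Il2rg, the common gamma chain, had fold changes of 0.01 and 0.16, and none of Il2ra, Il2rb, Il2rg, Il7r and Il9r was called in either comparison.

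Il17ra is the chain shared by the receptors for interleukin 17 cytokines. It stood at 797, 1541, 954 and 1408 on the oil-DBP arrays, against 377, 416, 379 and 434 on the oil-oil arrays. It stood at 759.9, 854, 1402 and 1031 on the DBP-DBP arrays, against 417, 417, 452 and 462 on the DBP-oil arrays. The arrays of pups given oil kept within a narrow range and those of pups given DBP were all higher and more spread. On the log2 scale Il17ra differed by 1.40 ± 0.17 (SE, limma adjusted p = 7.77e-06) for oil-DBP against oil-oil and 1.12 ± 0.17 (SE, limma adjusted p = 1.34e-04) for DBP-DBP against DBP-oil.

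Il17re, the chain that binds interleukin 17C, read 230.4, 444, 293 and 400.2 on the oil-DBP arrays, against 199.9, 144, 206 and 202 on the oil-oil arrays. It read 243, 200.1, 410.3 and 194 on the DBP-DBP arrays, against 143, 185, 176 and 149.9 on the DBP-oil arrays. The groups did not overlap, but 2 of the DBP-DBP arrays lay just above the highest DBP-oil array. The fold change was 0.72 ± 0.21 (SE, limma adjusted p = 0.0339) for oil-DBP against oil-oil, a call lost in 8 of the alternatives tried, and 0.56 ± 0.21 (limma adjusted p = 0.162) for DBP-DBP against DBP-oil. Its second probe set gave 1.33 (limma adjusted p = 0.00137) for oil-DBP against oil-oil. For DBP-DBP against DBP-oil that probe set gave 0.72 (limma adjusted p = 0.126), with groups that overlapped. Il17rc, another chain of this family, was not called (0.45 and 0.16).

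Il10rb is shared by the receptors for interleukin 10, interleukin 22 and the lambda interferons. It read 445, 472, 384 and 493 on the oil-DBP arrays, against 186, 170.2, 212 and 109.5 on the oil-oil arrays. It read 284, 357, 495 and 379 on the DBP-DBP arrays, against 161, 159, 208 and 207 on the DBP-oil arrays. The lowest array given DBP (284) was above the highest given oil (212). Its fold changes were 1.29 ± 0.17 (SE, limma adjusted p = 3.24e-05) for oil-DBP against oil-oil and 0.95 ± 0.17 (SE, limma adjusted p = 0.00128) for DBP-DBP against DBP-oil. Il10ra, the chain that binds interleukin 10 itself, differed by 0.10 and -0.48 and was called in neither.

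Tnfrsf21, also named death receptor 6, read 88.9, 112, 112 and 160.0 on the oil-DBP arrays, against 9.48, 41.1, 47.9 and 42.7 on the oil-oil arrays. It read 128, 120.0, 144 and 145 on the DBP-DBP arrays, against 33.8, 65.3, 70.2 and 75.03 on the DBP-oil arrays. Neither pair overlapped, and the oil-oil array of pup 104 stood far below the other 3. Its fold changes were 1.39 ± 0.28 (SE, limma adjusted p = 0.00283) for oil-DBP against oil-oil and 0.98 ± 0.28 (SE, limma adjusted p = 0.0477) for DBP-DBP against DBP-oil, and the call in the second comparison was lost in 14 of the 22 alternatives tried. Its second probe set gave 1.11 (limma adjusted p = 0.0583) and 0.84 (0.252). Tnfrsf25, a death-domain receptor known from T cells, differed by 0.04 and 0.09 and was called in neither.

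Il1rl1 was the member called lower. It read 22.3, 8.63, 20.8 and 34.7 on the oil-DBP arrays, against 101, 50.8, 77.6 and 35.2 on the oil-oil arrays. It read 63.5, 31.5, 80.6 and 41.7 on the DBP-DBP arrays, against 25.9, 16.4, 26.7 and 23.4 on the DBP-oil arrays. All oil-DBP arrays were below all oil-oil arrays, while all DBP-DBP arrays were above all DBP-oil arrays. Il1rl1 thus gave -1.17 ± 0.31 (SE, limma adjusted p = 0.02) for oil-DBP against oil-oil and 0.78 ± 0.31 (limma adjusted p = 0.192) for DBP-DBP against DBP-oil. Its second probe set gave -0.36 (limma adjusted p = 0.522) and -0.19 (0.847), and the call was lost in 6 of the alternatives tried. Its family members Il1rap, the signalling partner of interleukin 1 receptors, and Il1rl2, the interleukin 36 receptor, were not called, while interleukin 33 itself (Il33) was called higher in both comparisons.

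**Figure D2:**
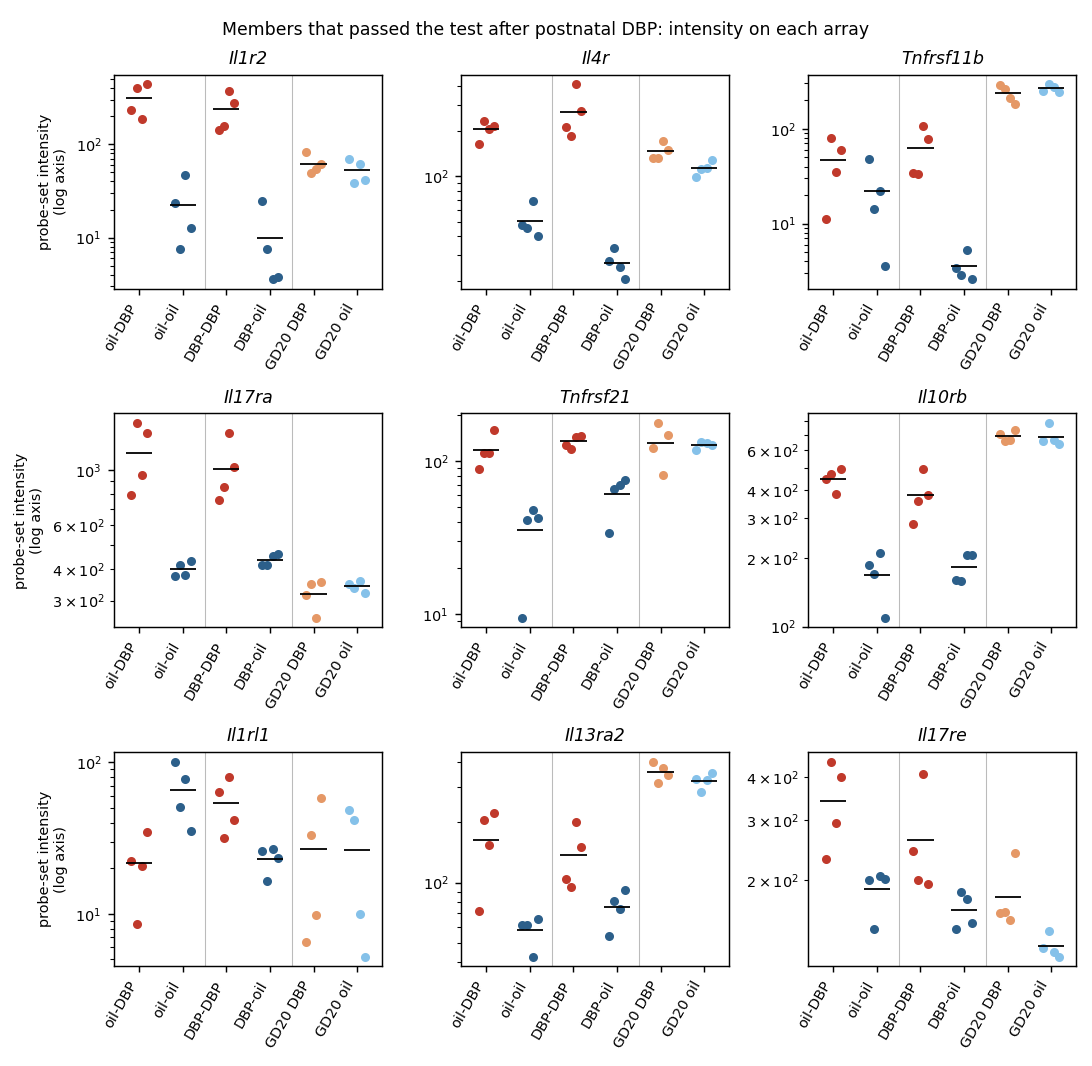
Intensity (log axis) on each of the 24 arrays of the 9 members called in a postnatal comparison, with each group's mean as a line; red points are pups given DBP at PND35, dark blue points pups given oil, and orange and light blue points GD20 DBP and GD20 oil. In Il4r, Il17ra, Il10rb, Il1r2 and Tnfrsf21 the red points lie above the dark blue points of their own pair, and in Il1rl1 they lie below on the left and above in the middle.

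Among the ligands none of 6 was called in either comparison. Over all probe sets 8.92% were called in oil-DBP against oil-oil and 5.23% in DBP-DBP against DBP-oil. Counts of 0 among so few genes therefore do not set the groups of members named here apart from other genes. Tnfsf12, the ligand of Fn14, gave -0.14 and -0.51 (limma adjusted p = 0.709 and 0.12). Tnfsf4, the ligand of OX40, gave 0.18 and 1.04 (0.831 and 0.121), and Tnfsf11, the ligand RANKL, gave 0.65 and -0.31 (0.295 and 0.776). None of the 9 members that are TNF receptors without a death domain was called. The nearest was Tnfrsf14, the herpesvirus entry mediator, at 1.25 ± 0.37 for DBP-DBP against DBP-oil (limma adjusted p = 0.0566). Tnfrsf12a, left out of the members by name, is not among these 9 and was called higher in both comparisons, as given below. Il3ra, Il5ra, Il11ra1, Il27ra and Il20rb were not called either. None of the 14 members with a mean under 50 in every group was called, and the files give no detection call by which to say that such a gene was present.

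The members called higher were highest on the same few arrays. Among the 7 called in oil-DBP against oil-oil, the highest oil-DBP array was that of pup 121 for 4 and pup 111 for 3, and the lowest was that of pup 105 for 5 and pup 115 for 2. Of all probe sets called higher in that comparison, 59.4% were highest at pup 111, 29.8% at pup 121, and 64.9% lowest at pup 105. Among the 6 called in DBP-DBP against DBP-oil, pup 133 was highest for 5 and pup 135 for 1, and over all probe sets called higher these shares were 65.3% and 25.2%. Over members with a mean of 50 or more in some group, the median SD of log2(intensity + 16) within a group was 0.23 to 0.42, against 0.16 to 0.29 over all probe sets.

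Some markers of white blood cells, and not others, differed in the same comparisons. Of 8 neutrophil markers 5 were measured, and S100a8 and S100a9 were called higher in oil-DBP against oil-oil (3.72 and 4.58) and in DBP-DBP against DBP-oil (3.59 and 4.32), whereas Csf3r, Cxcr2 and Camp were not. The summed intensity of the 5 was 304 to 1861 in oil-DBP and 28.0 to 101 in oil-oil, and 574 to 3940 in DBP-DBP and 66.8 to 149 in DBP-oil. Most of the sum in oil-DBP came from S100a9 and S100a8, with means of 984 and 279, against 65.3 for Csf3r. S100a9 stood at 1327 on the oil-DBP array of pup 105, where 5 of the 7 members were lowest, at 188 on that of pup 115, where the other 2 were lowest, and at 1041 and 1379 on those of pups 111 and 121, where members were highest. Among DBP-DBP arrays it stood at 1806 for pup 133, where 5 of the 6 members were highest, and at 2860 for pup 135, where 1 was. It stood at 429 and 390 for pups 124 and 128, where members were lowest. Of 12 macrophage and monocyte markers, Cd14 and Mrc1 were called higher and Aif1 lower in oil-DBP against oil-oil, and Cd14, Lyz2 and Mrc1 higher in DBP-DBP against DBP-oil. Their sum was 5843 to 7183 in oil-DBP and 5286 to 6565 in oil-oil, and 5886 to 8301 in DBP-DBP and 4355 to 5654 in DBP-oil, with Itgam under 50 on average in every group. None of 10 measured lymphocyte markers was called in either comparison, and Cd3d, Cd2, Cd79b, Ms4a1 and Cd5 averaged under 50 in all PND35 groups. The part of these cells in the members' values was not tested.

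Some markers of the testis's own cells differed too. Of 6 markers of peritubular myoid cells, the contractile cells around the tubules, 4 were called higher in oil-DBP against oil-oil and 5 in DBP-DBP against DBP-oil, and none lower. Their summed intensity was 6885 to 7920 in oil-DBP and 4523 to 4944 in oil-oil, and 6698 to 7411 in DBP-DBP and 4054 to 5223 in DBP-oil. Of 8 Leydig cell markers, 4 were called lower and 1 higher in oil-DBP against oil-oil, and 2 lower in DBP-DBP against DBP-oil, their sum being 7514 to 16108 in oil-DBP and 16128 to 22716 in oil-oil, and 12162 to 14755 in DBP-DBP and 13981 to 19056 in DBP-oil. Of 10 Sertoli cell markers, 3 were called higher and 1 lower in oil-DBP against oil-oil, and 1 lower in DBP-DBP against DBP-oil, with sums that overlapped in both. Of 9 spermatocyte and spermatid markers, 4 were called lower in oil-DBP against oil-oil and none in DBP-DBP against DBP-oil, with overlapping sums. Of 7 endothelial markers, 1 was called lower in the first comparison and 1 higher in the second, and none of 3 gonocyte and spermatogonium markers was called in either. How these shifts bear on the members' values was not tested.

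Spike-in class differed in DBP-DBP against DBP-oil, with 4 high arrays against 2, and did not differ in oil-DBP against oil-oil. Against the 2 DBP-oil arrays of the high class alone, an alternative chosen after seeing the data, DBP-DBP gave 3 called members (Il17ra, Il1r2 and Il4r) in place of 6, and Il10rb and Tnfrsf11b reached adjusted p values of 0.0511 and 0.0516 in limma, at fold changes of 0.81 and 1.89, and Tnfrsf21 0.369 at 0.77. Without the oil-DBP array of pup 111, 5 members were called in oil-DBP against oil-oil in place of 8, namely Il10rb, Il17ra, Il1r2, Il4r and Tnfrsf21.

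The genes around these receptors were read from lists. Of the 5 genes left out of the members by name, Tnfrsf12a, Il6r, Il1r1 and Tnfrsf1a were called higher in both comparisons, with fold changes of 4.14, 2.92, 2.21 and 1.86 in oil-DBP against oil-oil and 3.58, 2.58, 1.74 and 1.84 in DBP-DBP against DBP-oil. Of 11 measured TNF superfamily genes with other names, Fas and Ltbr were called higher in oil-DBP against oil-oil (1.90 and 0.57), and Fas alone in DBP-DBP against DBP-oil (2.01). Of 17 cytokine receptor subunits with other names, Ifngr2, Il6st and Ifnar2 were called higher in both comparisons (1.53, 1.39 and 1.07, then 1.41, 1.19 and 1.05), and none lower.

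Of 23 measured interleukin ligands, 5 were called higher in both comparisons and none lower. These were Il6, Il1a, Ebi3, Il1b and Il33, with Il6 at 3.31 and 3.30 and Il1a at 2.90 and 2.89. Of 20 adaptors and regulators of TNF receptors, 4 were called higher and 1 lower in oil-DBP against oil-oil, and 5 higher and 1 lower in DBP-DBP against DBP-oil. Tnfaip3, an enzyme that restrains NF-kB, gave 2.31 and 2.70, Cflar, an inhibitor of caspase 8, gave 1.85 and 1.39, and Tab1, a partner of the kinase TAK1, gave -0.63 and -0.51. Of 21 genes of interleukin receptor signalling, 7 and 6 were called higher and none lower, among them the feedback inhibitors Socs3 (2.92 and 2.49) and Cish (2.42 and 2.69) and the factor Stat3 (1.93 and 1.79). List medians were 0.01 to 0.25 in oil-DBP against oil-oil and 0.04 to 0.24 in DBP-DBP against DBP-oil.

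**Figure D3:**
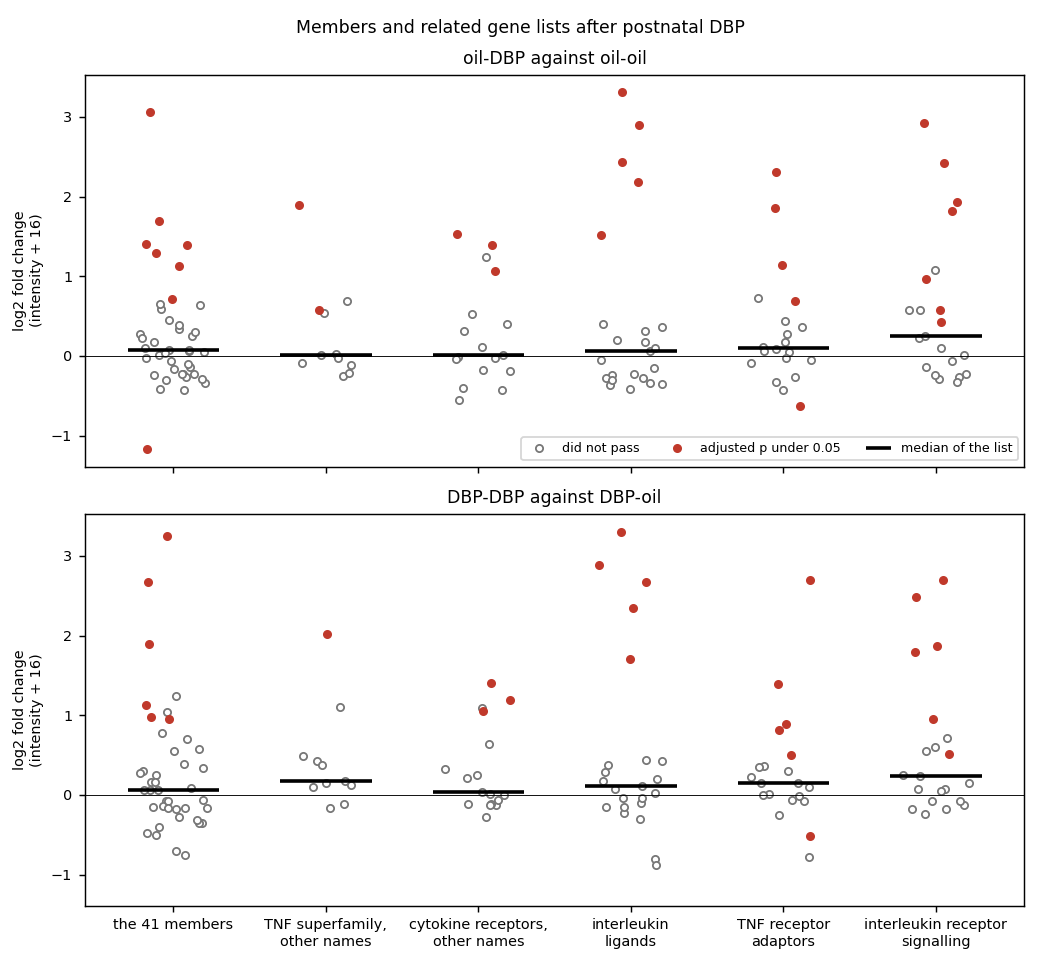
Log2 fold changes of the 41 members and of the measured genes of 5 related lists, for oil-DBP against oil-oil (top) and DBP-DBP against DBP-oil (bottom); each point is a gene, filled where the adjusted p was under 0.05, and the bar is the list's median. In every list the median lies near 0 and the filled points form a minority, 7 of 21 at most.

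Fetal exposure left no call among the members. At GD20, DBP against oil gave 0 called members in limma, while 0.441% of all probe sets were called. Of the 41 members, 6 had an unadjusted p under 0.05 in limma, against 11.8% of all probe sets, and the smallest adjusted p was 0.282. The 3 smallest p values belonged to Il9r, Tnfsf13 and Il17re. Il9r, the interleukin 9 receptor, read 42.7, 54.0, 85.6 and 67.6 in DBP testes and 43.1, 32.2, 30.7 and 20.4 in oil testes (0.71 ± 0.25), with overlap. Tnfsf13, the ligand APRIL, read 73.8, 104, 118 and 109.6 in DBP testes and 148, 149.6, 136 and 152 in oil testes (-0.49 ± 0.17), with no overlap. Il17re read 160.5, 161, 152 and 239 in DBP testes and 127, 142, 123 and 119 in oil testes (0.42 ± 0.16), with no overlap. These genes were picked by their p values in this same comparison, so the lack of overlap in Tnfsf13 and Il17re is no separate evidence.

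At PND35, DBP-oil against oil-oil gave 0 called members in limma, against 0.00322% of all probe sets. Of the 41 members, 6 had an unadjusted p under 0.05 in limma, against 7.41% of all probe sets, and the smallest adjusted p was 0.351. The 3 smallest p values belonged to Il1rl1 at -1.03 ± 0.31, Il9r at -0.74 ± 0.25 and Il4r at -0.65 ± 0.23. Il9r read 33.6, 27.7, 39.1 and 31.5 in DBP-oil pups and 52.1, 74.5, 75.4 and 57.9 in oil-oil pups, and all 3 genes were lower on each DBP-oil array than on any oil-oil array. They were picked by their p values in this same comparison, so the lack of overlap is no separate evidence. DBP-DBP against oil-DBP also gave 0 called members in limma, as it did over all probe sets (0%). Of the 41 members, 2 had an unadjusted p under 0.05 in limma, against 8.99% of all probe sets, and the smallest adjusted p was 0.359. The 3 smallest p values there belonged to Il1rl1 at 0.92 ± 0.31, Tnfrsf8 (CD30) at 0.74 ± 0.31 and Tnfsf4 at 0.74 ± 0.36. There, all DBP-DBP arrays were of the high spike-in class and all oil-DBP arrays of the low one, so the class cannot be told apart from DBP in utero.

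The difference between the responses to DBP in pups with and without fetal DBP was called for 0 of the 41 members in limma and 0% of all probe sets. Of the members 4 had an unadjusted p under 0.05 in limma, against 4.72% of all probe sets, and the smallest adjusted p was 0.954. Il1rl1 had the largest such difference, 1.95 ± 0.43 with an unadjusted p of 2.19e-04, followed by Il4r at 0.99 ± 0.32 and Il9r at 0.98 ± 0.35. The second probe set of Il1rl1 gave only 0.17 ± 0.43 (unadjusted p = 0.701 in limma). Il1rl1, Il4r and Il9r are read here from the same arrays as above, so these values add no separate evidence.

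More members were called between the ages than after DBP. Between oil-oil testes at PND35 and oil testes at GD20, 5 members were called higher and 17 lower on the deposited scale, a share of 53.7% against 64% of all probe sets (20.7% higher and 43.3% lower). The median of all probe sets itself differed by -0.31 (log2) on that scale, by 0.34 with each array centred on its median and by 0.00 after quantile normalization. The member calls were 9 higher and 7 lower with centring, 9 and 9 after quantile normalization, and 8 and 12 with the 75th percentile. Higher calls made up 32.3% of all calls on the deposited scale, 62.2% with centring, 46.2% after quantile normalization and 44.9% with the 75th percentile. Fold changes are therefore also given relative to the median of all probe sets. The labels record no time after the last dose for the GD20 oil dams. Extraction method differed between the ages, and mean spike-in log2 intensity was 5.75 to 5.90 in oil-oil arrays at PND35 and 7.74 to 8.03 in GD20 oil arrays, so neither can be told apart from age.

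Il3ra, the chain that binds interleukin 3, was the member with the largest difference between ages. It read 4113, 4154, 3490 and 3237 in oil-oil testes at PND35 and 231, 227, 232 and 234 in oil testes at GD20. The fold change was 3.92 ± 0.09 (limma adjusted p = 1.33e-13), or 4.24 relative to all probe sets. Il3ra stayed high in every PND35 group, with means of 3287 ± 662 in oil-DBP, 3749 ± 457 in oil-oil, 3298 ± 143 in DBP-DBP and 3412 ± 477 in DBP-oil (SD, n = 4 each). At GD20 it averaged 266 ± 44.4 in DBP testes and 231 ± 2.93 in oil testes. The 4 DBP arrays read 231, 238, 267 and 328, the highest being that of dam 21, the array noted above for Prm1.

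The other 4 members called higher were Il1rl1, Il2rb, Il9r and Il17re, at 1.36, 1.13, 1.09 and 0.81 relative to all probe sets. Il2rb, a shared chain of the interleukin 2 and 15 receptors, averaged 139 ± 19.7 in oil-oil testes at PND35 and 71.4 ± 6.40 in oil testes at GD20. Il1rl1 gave -0.59 (limma adjusted p = 0.0921) from its second probe set, the opposite direction. Il17re gave 0.59 (0.171) from its second probe set.

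The 17 members called lower included Tnfrsf11b, Il13ra2 and Il1r2, the decoys called higher after DBP at PND35. Tnfrsf11b averaged 21.8 ± 18.7 in oil-oil testes at PND35 and 265 ± 24.8 in oil testes at GD20, a fold change of -3.02 ± 0.31 and of -2.71 relative to all probe sets. Il13ra2 averaged 57.7 ± 10.3 at PND35 and 323 ± 29.1 at GD20, or -1.90 relative to all probe sets. Il1r2 averaged 22.5 ± 17.3 at PND35 and 52.8 ± 15.2 at GD20, or -0.60. The next largest relative falls were those of Il10rb (-1.63), Il17rc (-1.60), Tnfsf12 (-1.54) and Tnfrsf21 (-1.25). Tnfsf11 and Tnfrsf25 both stood at -0.87, and the rest lay between -0.83 for Tnfsf13 and -0.51 for Tnfsf9. The second probe set of Tnfsf11 gave -0.27 on the deposited scale (limma adjusted p = 0.427), or 0.04 relative to all probe sets. That of Il1rap gave -0.44 on the deposited scale (0.331), while those of Tnfrsf21 and Tnfsf13 were called lower as well.

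Many of the lower calls depended on the scaling. Of the 17, 7 were called lower under all 4 scalings, namely Il10rb, Il13ra2, Il17rc, Tnfrsf11b, Tnfrsf21, Tnfsf12 and Tnfsf13. With each array centred on its median 10 calls were lost, those of Il11ra1, Il1r2, Il1rap, Il27ra, Il4r, Tnfrsf19, Tnfrsf25, Tnfrsf26, Tnfsf11 and Tnfsf9. Quantile normalization lost 8 of these, all but Il11ra1 and Tnfsf11, and the 75th percentile lost 5, those of Il1r2, Il1rap, Il27ra, Tnfrsf19 and Tnfsf9. The 5 higher calls were made under all 4 scalings. How many of all probe sets were called under all 4 is not given here, so these counts do not set the members apart from other genes.

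Cell type markers also differed between the ages. On the deposited scale all 9 spermatocyte and spermatid markers were called higher in oil-oil testes at PND35 than in oil testes at GD20, with a median fold change of 6.83. Called lower were 7 of 7 endothelial markers (median -1.90), 7 of 8 Leydig cell markers (-1.64) and 5 of 6 peritubular myoid markers (-1.83). So were 8 of 10 Sertoli cell markers (-1.22) and 3 of 5 neutrophil markers (-1.09). The other Leydig cell marker and the other 2 Sertoli cell markers were called higher. Of 12 macrophage and monocyte markers 3 were called higher and 5 lower, and of 10 lymphocyte markers 2 and 3. Of 3 gonocyte and spermatogonium markers 2 were called higher and 1 lower. Over all probe sets 20.7% were called higher and 43.3% lower. Their part in the members' differences was not tested.

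**Figure D4:**
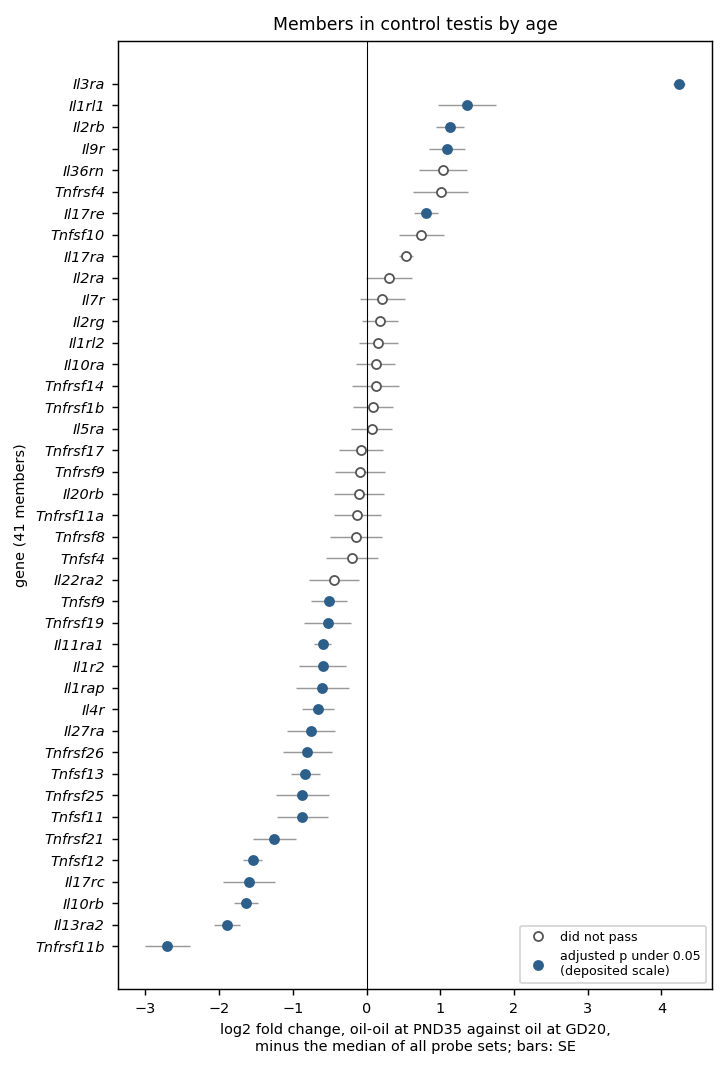
Log2 fold change of each of the 41 members for oil-oil testis at PND35 against oil testis at GD20, minus the median of all probe sets (points) with its SE (bars); filled points had an adjusted p under 0.05 on the deposited scale. Il3ra stands at 4.24 and Tnfrsf11b, at the other end, at -2.71.

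Set side by side, the levels in oil-DBP testes of the members called in oil-DBP against oil-oil stood differently against the fetal level. In oil-DBP testes Il10rb averaged 449 ± 47.1, between 169 ± 43.4 in oil-oil testes and 686 ± 67.9 in GD20 oil testes. Il13ra2 averaged 163 ± 67.6 in oil-DBP testes, again between 57.7 ± 10.3 in oil-oil and 323 ± 29.1 in GD20 oil testes. Tnfrsf21 averaged 118 ± 29.8 in oil-DBP and 127 ± 6.57 in GD20 oil testes, whose ranges overlapped. Il1r2 (317 ± 126 against 52.8 ± 15.2), Il4r (206 ± 30.8 against 113 ± 11.6) and Il17ra (1175 ± 356 against 342 ± 17.1) were higher on every oil-DBP array than on any GD20 oil array. These values cross ages on the deposited scale and were not tested.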

How the data were processed

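The files hold intensities per probe set, which the authors deposited after the vendor's GCOS 1.0 software, per the submitters' processing notes. The sources used here do not name the method that summarised the probes. RNA at PND35, per the labels' protocols, came from a column kit on 14 arrays and from Trizol with clean-up on 2 (oil-oil pup 104 and oil-DBP pup 115), and GD20 RNA from Trizol with a micro kit. RNA integrity numbers were 8.2 to 8.9. Of 31099 probe sets, 57 controls were left out and 31042 tested, of which 20826 had 1 symbol, 436 several and 9780 none in the platform annotation given here.

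Intensities were turned into log2(intensity + 16). PND35 arrays were centred on their medians and fitted together, and the GD20 and age fits kept the deposited scale. Tests used limma 3.58.1 in R 4.3.3, with an intensity trend and Benjamini-Hochberg adjustment over all probe sets, and were tested on simulated data. No sample was dropped or imputed. Members, lists and tests were chosen with earlier results of these data known. Named genes are all members called after postnatal DBP, the 3 smallest p values in a comparison with fewer calls, the largest rises and falls with age, and up to 4 called genes per related list. Alternatives were other scalings, pseudocounts, a filter on dim probe sets, no trend, extraction or spike-in class as covariate, adjacent pup numbers as block, fewer arrays, each array left out in turn, and the second probe set of a gene.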

Additional observations from a re-analysis of the deposited data

Results flagged for a closer look

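Il17re, the chain that binds IL-17C, was set apart on 2 arrays by Dixon's rule for groups of 4, applied to the 9 members shown by array. In GD20 DBP testes the array of dam 21 stood at 239, with the other 3 between 152 and 161. In oil-oil testes the array of pup 110 stood at 144, with the others between 200 and 206. These were 2 of 54 groups looked at, and at 1 in 20 chance would give 2.7.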

How the results depend on the processing

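Member counts after postnatal DBP kept within 1.5 times of 8 and 6 under all alternatives but 2. Without the oil-DBP array of pup 111 oil-DBP against oil-oil gave 5 members, and leaving out each array in turn gave 5 to 9. With high spike-in class arrays alone in DBP-oil, chosen after seeing the data, DBP-DBP against DBP-oil gave 3, and leaving out each array in turn gave 5 to 6. The count stayed 0 in the GD20, fetal exposure and interaction comparisons under every alternative run, and was 15 to 22 between the ages. The second probe set of Il1rl1 reversed its sign in DBP-DBP against oil-DBP (-0.39) and between the ages (-0.59), and the cause was not tested. Of calls for single members, Il17re, Il1rl1 and Il13ra2 in oil-DBP against oil-oil and Tnfrsf21, Il10rb and Tnfrsf11b in DBP-DBP against DBP-oil were lost under some alternatives, as given above, and Tnfrsf21 in oil-DBP against oil-oil from its second probe set. Counts over all probe sets moved more. Those for GD20 DBP against oil were 137 in the fit reported, 10 without the intensity trend and 29 to 175 with an array left out. Those for oil-DBP against oil-oil were 2770, 1541 with only the arrays compared and 4607 without pup 105. Those for DBP-DBP against DBP-oil were 1623 and 874 with high spike-in class arrays alone in DBP-oil. In GD20 DBP against oil, higher calls made up 47.4% of all calls, and 67.8% with arrays centred on their medians. No paired analysis was possible because the labels give each pup its own number. With adjacent pup numbers as a block, an alternative the labels do not support, the member counts were 8 and 6. Within groups the 14 dim members had a median SD of 0.34 to 0.53 (log2), wider than the members not dim in every group but DBP-DBP (0.34 against 0.40).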
